A study of Mus musculus with 8 samples.

Results

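The MYC and MAX network genes were examined in fetal liver long-term hematopoietic stem cells (LT-HSCs) that carried or lacked *IκBα* (*Nfkbia*), the inhibitor that holds NF-κB in the cytoplasm. The network was taken as 10 genes named by symbol (*Myc*, *Mycn*, *Mycl*, *Max*, *Mxd1*, *Mxd3*, *Mxd4*, *Mnt*, *Mlx* and *Mlxip*) among the 55487 genes of the count table, and all 10 passed the filter of 10 reads summed over the 8 samples. Each sample was a bulk RNA-seq library of 500 LT-HSCs (LSK CD48- CD150+), sorted from mouse embryos at E14.5. There were 3 *IκBα* WT, 3 heterozygous (HET) and 2 homozygous knockout (KO) samples. The KO allele is the targeted *Nfkbia* tm1Bal allele, a knockout in all cells of the embryo rather than in HSCs alone. The embryos came from matings between HET carriers, and some parents could also carry a *Gfi1:tomato* reporter. WT1, WT2 and HET1 were male and labeled as total RNA, whereas WT3, HET2, HET3, KO1 and KO2 were female and labeled as polyA RNA. Sex and RNA label therefore cannot be told apart, and both KO samples were female. A further KO sample was dropped by the authors for sequencing quality and was not analyzed here.

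MYC proteins bind DNA at the E-box as dimers with MAX and activate genes for ribosome production, metabolism and cell cycle entry. The MXD proteins and MNT compete for MAX and recruit SIN3 and histone deacetylases to the same sites, and MLX with MLXIP forms a parallel arm that responds to glucose. In HSCs *Myc* and *Mycn* are known to act together in proliferation and survival, and MYC is known to promote exit from the stem cell state.

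Because the E-box is the letter string that network dimers read, the promoters of the network genes themselves were searched for it. RefSeq promoter windows on GRCm38.p6, from 250 bases before to 50 bases after the start, were matched for 9 of the 10 genes, all but *Myc*. CACGTG, which reads the same on both strands, was found in 4 of the 9 windows, against 7.15% of 32851 promoters. Each is shown with 12 flanking bases, in the gene's own direction, with the E-box in capitals.
Mxd4: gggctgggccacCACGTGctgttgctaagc
Mnt: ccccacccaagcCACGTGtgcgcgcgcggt
Mlx: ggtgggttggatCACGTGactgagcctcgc
Max: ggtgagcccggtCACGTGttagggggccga
These stretches lie at chr5:34187912-34187941 (minus strand) for *Mxd4*, chr11:74830789-74830818 (plus strand) for *Mnt*, chr11:101087238-101087267 (plus strand) for *Mlx* and chr12:76962234-76962263 (minus strand) for *Max*. The E-box began 219, 123, 40 and 3 bases before the start, respectively. As the study removed an NF-κB inhibitor, the NF-κB consensus was searched on both strands too, and 1 of the 9 windows held it, against 8.46% of all promoters.
Mycn: gggtggatgcGGGGGGCTCCtgg
This stretch lies at chr12:12941787-12941809 (minus strand), 38 bases after the *Mycn* start, with the consensus match in capitals. No overlap between these matches and the E-boxes occurs, since no window held both. Such matches describe letters in these windows and are not binding sites.

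The depth was even, with 17895973 to 21720972 counted reads per sample. *Nfkbia*, the targeted gene, was left with a single read in KO1 and no read in KO2, against 14.4 to 67.7 CPM (read counts scaled to a common library size by TMM) in the WT and HET samples. The cell label was checked against 10 HSC markers. WT3 and HET3 went against it: their summed HSC marker level was 285 and 205 CPM, whereas HET1 and HET2 had 705 and 628, KO2 1213, KO1 1879, and WT1 and WT2 2020 and 2059 CPM. In HET3, *Mecom* stood at 1.36, *Hlf* at 3.03, *Procr* at 1.13 and *Ly6a* at 0 CPM. In WT3 none of these 4 genes was over 15.8 CPM, while in WT1 none was under 62.7 CPM. *Kit*, also among the 10 markers, did not follow them. It stood at 170 CPM in HET3 and 148 CPM in WT3, against 170 CPM in WT1, 212 CPM in WT2, 135 CPM in HET1 and 165 CPM in HET2. *Kit* thus made up most of the HET3 sum of 205 CPM. In KO1 and KO2 it stood at 231.4 and 228.5 CPM, above all 6 WT and HET samples, a pattern seen in 3.05% of all genes. The 8 hepatocyte markers summed to 1483 CPM in WT3 and 753 CPM in HET3, and to between 49.8 CPM in KO1 and 299 CPM in KO2 in the other samples. The 8 erythroid markers did not set the same samples apart, with 8887 CPM in HET1, 3976 in HET2, 3209 in HET3, 2860 in WT3, 2564 in KO2, 1143 in WT1, 647 in KO1 and 644 in WT2. The edgeR estimates for KO and the ratios between genes are therefore given with all samples and with WT3 and HET3 both left out, a choice made after seeing the data. In bulk samples, fewer cells of a type and less RNA per cell cannot be told apart.

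*Myc*, on chromosome 15 (GRCm38, 61985391 to 61990374, plus strand), encodes the main MYC activator and was abundant in all 8 samples. It stood at 267, 164 and 1414 CPM in WT1, WT2 and WT3, at 881, 756 and 1484 CPM in HET1, HET2 and HET3, and at 236 and 840 CPM in KO1 and KO2. The KO pair lay inside the WT/HET range, with KO1 between WT2 and WT1 and KO2 between HET2 and HET1. *Mycn*, on chromosome 12 (12936093 to 12941914, minus strand), encodes the paralog MYCN. It stood at 277, 257 and 17.6 CPM in the WT samples, at 66.9, 38.0 and 2.31 CPM in the HET samples, and at 259 and 165 CPM in the KO samples. Both KO samples were above all 3 HET samples and above WT3, and KO1 fell between WT1 and WT2. *Mycl*, on chromosome 4 (122995652 to 123002485, plus strand), encodes MYCL and was close to absent, with 0, 1 and 8 reads in the WT samples, 31, 1 and 0 reads in the HET samples, and 14 and 0 reads in the KO samples. Since 0 reads in HET3 allow a level of up to 0.178 CPM (3 reads, counting error only), no fold change is given for *Mycl*.

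**Figure D1:**
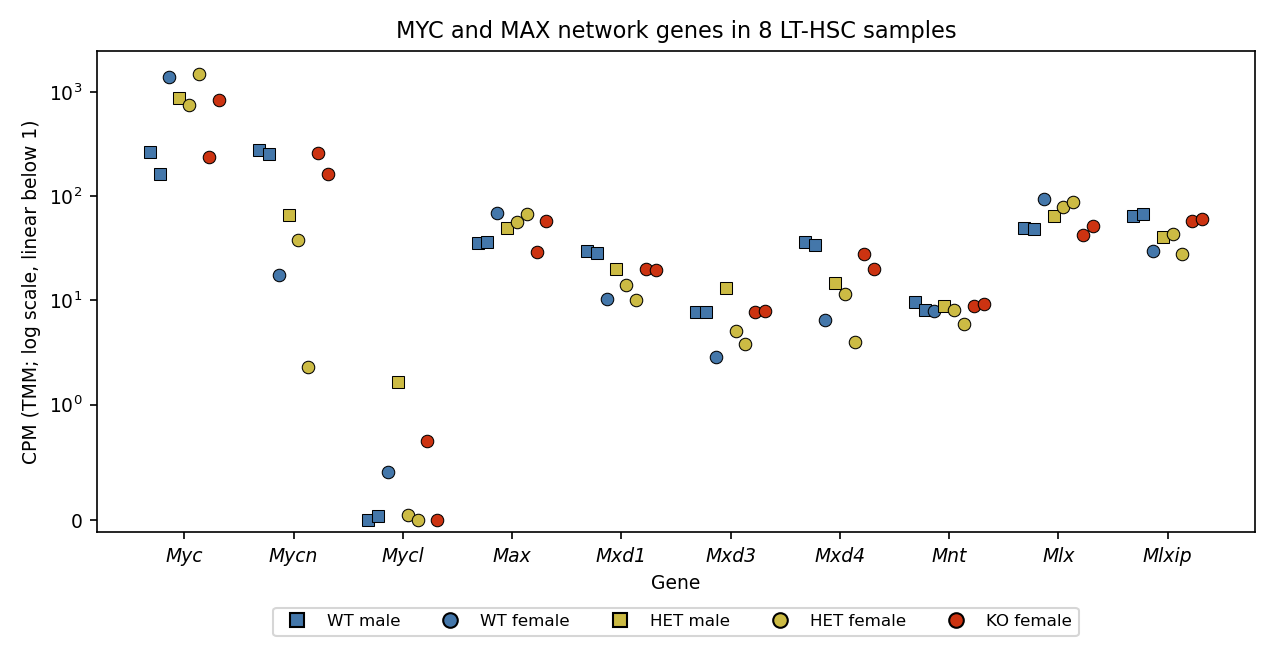
CPM of the 10 network genes (y axis, log scale, linear below 1) in each of the 8 samples, 1 point per sample, colored by genotype, with squares for males and circles for females; no error bars are drawn. For none of the 10 genes do both KO points lie beyond all WT and HET points, KO1 is the lowest point for *Max* and *Mlx*, and *Mycn* spans 2.31 to 277 CPM.

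To ask how the network changed in the KO, the KO samples were compared with the pooled WT/HET samples with sex in the model (edgeR quasi-likelihood test, Benjamini-Hochberg adjustment over 20610 genes, with a call set at an adjusted p under 0.05 and an estimate beyond 1 log2 unit). As no KO sample was male, every KO estimate with sex in the model sets KO against the female WT3, HET2 and HET3. The males WT1, WT2 and HET1 add to scaling and spread only. Leaving out WT1 or WT2 kept *Mycn* at 3.46 and *Myc* at -1.18. WT3 and HET3 are the samples low in HSC markers. None of the 10 network genes was called, nor was any gene of the table (0%). *Mycn* had the largest estimate of the network, a log2 fold change of 3.46 ± 0.94 (SE) with a 95% interval from 1.30 to 5.61 and an adjusted p of 0.148. *Myc* had a log2 fold change of -1.18 ± 0.77, with an interval from -2.94 to 0.58 and an adjusted p of 0.351, so a change in either direction remained within its error. At an unadjusted p under 0.05, 5 network genes were higher (*Mycn*, *Mxd1*, *Mxd3*, *Mxd4* and *Mlxip*) and 1 was lower (*Mlx*), against 15.7% and 9.48% of all genes. With WT3 and HET3 left out, *Mycn* and *Mlx* were at an unadjusted p under 0.05, with 5.08% of all genes, and the estimates moved to 2.45 for *Mycn* (adjusted p = 0.683) and -0.52 for *Myc* (adjusted p = 0.872). In that fit HET2 was the single female reference sample. Without KO1 the *Myc* estimate was -0.54 and without KO2 it was -2.37.

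The calls for *Mycn* and *Mxd4* depended on the method and the reference. DESeq2 with apeglm shrinkage, as used in the study's methods, called *Mycn* (shrunken log2 fold change 2.95, adjusted p = 0.00542) and *Mxd4* (1.32, adjusted p = 0.0252) as higher and no network gene as lower, against 6.5% and 0.597% of all genes. *Mlx* passed its adjusted p (0.00378) but not its fold threshold, with a shrunken log2 fold change of -0.84. With WT alone as the reference, edgeR also called *Mycn* (3.60, adjusted p = 0.0292) and *Mxd4* (1.89, adjusted p = 0.0498), against 3.21% of all genes. With HET alone as the reference neither was called (adjusted p = 0.354 for both). Without sex in the model the estimates shrank to 0.95 for *Mycn*, 0.43 for *Mxd4* and -0.62 for *Myc*, each with an adjusted p of 0.978.

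Single-sample levels, with no model, gave the overlap directly. For none of the 10 network genes did both KO samples lie beyond all 6 WT/HET samples, a pattern seen above the reference in 3.05% and below it in 1.79% of all genes. The mean log2 CPM difference was 2.22 for *Mycn* (exact two-sided permutation p = 0.357) and -0.50 for *Myc* (exact permutation p = 0.571), where the smallest p that 2 against 6 samples allow is 0.0714. Within the females, both KO samples were above WT3, HET2 and HET3 for 6 genes (*Mycn*, *Mxd1*, *Mxd3*, *Mxd4*, *Mnt* and *Mlxip*) and below them for *Mlx*, but this also held for 27.1% and 21.4% of all genes. Of those 3 female reference samples, 2 were the ones low in HSC markers.

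*Max*, on chromosome 12 (76937269 to 76962201, minus strand), encodes the shared dimer partner. It varied 2.34 times between samples, at 35.5, 36.1 and 68.6 CPM in WT, 50.0, 57.1 and 68.0 CPM in HET, and 29.4 and 57.8 CPM in KO. KO1 was the lowest of all samples and KO2 the third highest. The log2 fold change in KO was -0.57 ± 0.30 (edgeR adjusted p = 0.260) and -0.42 without WT3 and HET3.

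Among the MXD antagonists, *Mxd4* had the largest estimate. *Mxd4*, on chromosome 5 (34173883 to 34187720, minus strand), stood at 36.2, 33.9 and 6.51 CPM in WT, 14.8, 11.6 and 3.97 CPM in HET, and 28.1 and 20.01 CPM in KO. Both KO samples lay below WT1 and WT2 and above WT3 and the HET samples. The log2 fold change was 1.71 ± 0.50 (interval 0.56 to 2.86, edgeR adjusted p = 0.151) and 1.02 without WT3 and HET3 (adjusted p = 0.683). *Mxd1*, a MAX partner linked to differentiation, on chromosome 6 (86647042 to 86669161, minus strand), stood at 30.1, 28.7 and 10.3 CPM in WT, 20.2, 14.1 and 10.1 CPM in HET, and 20.2 and 19.6 CPM in KO. The KO values were close to HET1, and the log2 fold change was 0.79 ± 0.27 (edgeR adjusted p = 0.154).

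*Mxd3*, an MXD gene known for expression in dividing cells, lies on chromosome 13 (55325168 to 55329823, minus strand). It stood at 7.72, 7.77 and 2.86 CPM in WT, 13.2, 5.04 and 3.86 CPM in HET, and 7.78 and 7.87 CPM in KO, with HET1 as the highest sample and a log2 fold change of 0.995 ± 0.40 (edgeR adjusted p = 0.177). *Mnt*, the antagonist with the broadest expression, lies on chromosome 11 (74830920 to 74845725, plus strand). It ranged from 5.99 CPM in HET3 to 9.59 CPM in WT1, with 8.86 and 9.34 CPM in KO, and its log2 fold change was 0.32 ± 0.30 (edgeR adjusted p = 0.522). Without WT3 and HET3 the estimates fell to 0.47 for *Mxd1*, 0.60 for *Mxd3* and 0.15 for *Mnt*. The median log2 fold change over the 10 network genes was 0.81 against 0.13 over all genes tested, and it was 0.45 without WT3 and HET3 and 0.12 without sex in the model.

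*Mlx*, on chromosome 11 (101087277 to 101092207, plus strand), encodes the MAX-like partner of MLXIP. It stood at 50.2, 48.7 and 95.1 CPM in WT, 65.0, 78.4 and 87.6 CPM in HET, and 42.7 and 52.2 CPM in KO. KO1 was the lowest of the 8 samples and KO2 lay just above WT1. Its log2 fold change of -0.87 ± 0.20 (interval -1.33 to -0.42, edgeR adjusted p = 0.148) stayed at -0.75 without WT3 and HET3 and -0.58 without sex in the model (adjusted p = 0.978). Under scaling by library size alone, both KO samples were below all 6 others for *Mlx* (exact permutation p = 0.0714), as for 1.19% of all genes. Some 19.3% of the *Mlx* exon bases overlap *Psmc3ip* on the other strand, and the strand setting of the counts is not given in the sources used here, so these reads are uncertain. *Mlxip*, on chromosome 5 (123394798 to 123457932, plus strand), encodes the glucose-responsive partner. It stood at 65.2, 67.8 and 29.6 CPM in WT, 40.8, 43.4 and 28.1 CPM in HET, and 57.6 and 61.2 CPM in KO. Both KO samples were between the WT1 and WT2 pair and all others, and the log2 fold change was 0.82 ± 0.27 (edgeR adjusted p = 0.154) and 0.42 without WT3 and HET3.

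**Figure D2:**
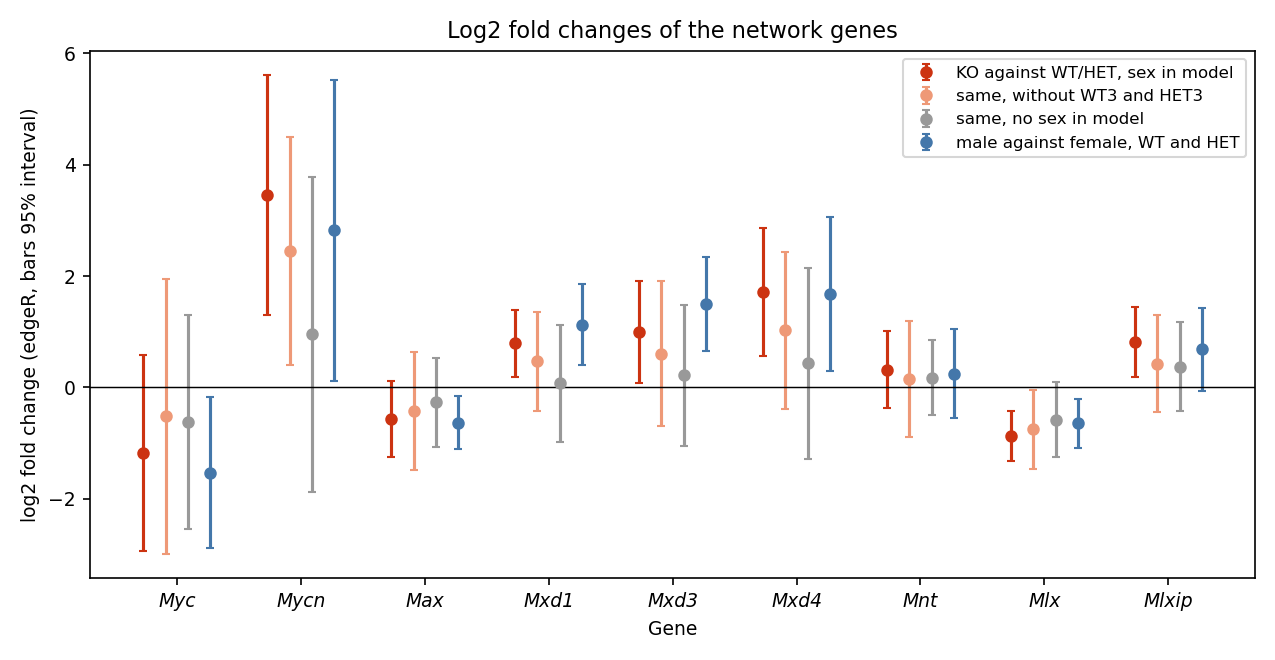
Log2 fold changes (y axis) of 9 network genes with 95% intervals from edgeR, for KO against WT/HET with sex in the model, the same without WT3 and HET3, the same without sex, and male against female samples among WT and HET. With sex in the model, the KO values set KO against the female WT and HET samples. *Mycl* is not drawn because its reads are near 0. *Mycn* is the highest KO estimate at 3.46 and falls to 0.95 without sex in the model.

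The sex term needs to be read beside these values, since KO and sex are unevenly mixed. Among the WT and HET samples, males against females gave 4 network genes higher at an unadjusted p under 0.05 (*Mycn*, *Mxd1*, *Mxd3* and *Mxd4*) and 3 lower (*Myc*, *Max* and *Mlx*), against 10.7% and 12% of all genes. *Mycn* was at 277, 257 and 66.9 CPM in the males and at 17.6, 38.0 and 2.31 CPM in the females, with a log2 fold change of 2.82 ± 1.12 (edgeR adjusted p = 0.209). *Myc* was at 267, 164 and 881 CPM in the males and 1414, 756 and 1484 CPM in the females, with a log2 fold change of -1.53 ± 0.56 (edgeR adjusted p = 0.193). No network gene was called, with 0.0146% of all genes called, whereas DESeq2 called *Mxd1*, *Mxd3* and *Mxd4* as higher and *Myc* as lower, with 8.92% of all genes. Males alone could not be compared for KO, as no KO sample was male. With WT3 and HET3 left out, HET2 was the single female sample, and with genotype in the model the value set HET1 against HET2 alone. It was 0.22 for *Myc*, the opposite sign, and 0.82 for *Mycn*.

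Loss of 1 *IκBα* allele was tested as HET against WT. No network gene was called or reached an unadjusted p under 0.05, with 0% and 3.62% of all genes, and DESeq2 called none of them either. The log2 fold change was 0.85 ± 0.55 for *Myc* and -0.91 ± 1.12 for *Mycn* (edgeR adjusted p = 0.932 and 0.969). With WT3 and HET3 left out this comparison rests on HET1 against WT1 and WT2, with HET2 alone in the other sex. The spread then comes from WT1 and WT2 alone, and HET1 is assumed to vary like them. In that fit edgeR gave 2.03 for *Myc*, -1.99 for *Mycn* and -1.25 for *Mxd4*, all past the threshold, as were 9.53% of all genes. Without HET1 the *Myc* and *Mycn* values were -0.34 and 0.20. Without HET2 *Mycn* was called (-2.31, adjusted p = 0.026), against 0.655% of all genes.

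The levels of *Mycn* and *Mxd4* ran in nearly the order of the HSC markers, and those of *Mxd1* and *Mlxip* ran close to it too. From highest to lowest, the samples ran WT2, WT1, KO1, KO2, HET1, HET2, WT3 and HET3 by summed HSC markers. By *Mxd4* they ran in the same order with WT1 before WT2, and by *Mycn* in the order WT1, KO1, WT2, KO2, HET1, HET2, WT3 and HET3. The order was not particular to HSC markers, as the sum of 6 endothelial markers ran WT2, KO1, WT1, KO2, HET1, HET2, WT3 and HET3. By *Myc* the order was nearly the opposite, from HET3, WT3, HET1 and KO2 down to HET2, WT1, KO1 and WT2. With sex in the model, KO was set against WT3, HET2 and HET3, the samples with the lowest HSC marker sums. In that fit edgeR called none of the 10 HSC markers in KO. It had all 10 higher at an unadjusted p under 0.05, against 15.7% of all genes, with a median log2 fold change of 2.71. DESeq2 with apeglm called 3 of them as higher (*Slamf1*, *Hoxa9* and *Meis1*, named after their values were seen), against 6.5% of all genes. Without WT3 and HET3 the median was 1.52, with 1 marker at an unadjusted p under 0.05, against 5.08% of all genes. The part of these cell differences in the *Mycn* and *Mxd4* values was not tested.

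**Figure D3:**
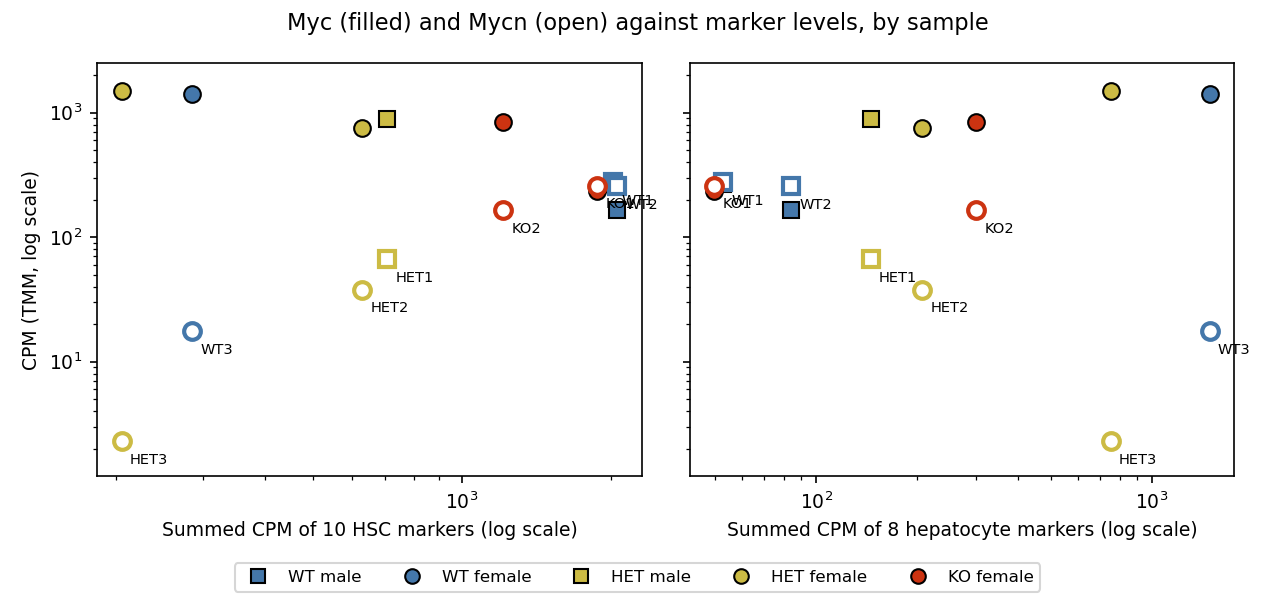
CPM of *Myc* (filled) and *Mycn* (open) in each sample (y axis, log scale) against the summed CPM of 10 HSC markers (left x axis, log scale) and 8 hepatocyte markers (right x axis, log scale), with color for genotype and shape for sex. The samples with the lowest HSC marker sums, 205 and 285 CPM, have the lowest *Mycn* at 2.31 and 17.6 CPM and the highest *Myc* at 1484 and 1414 CPM.

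Levels were then compared between genes per kb of exon, since a longer transcript gives more reads. *Myc* ranged from 60.4 to 546 CPM per kb and *Mycn* from 0.702 to 83.9 CPM per kb, a spread of 119.5 times against 9.04 times. *Mycn* made up 46.1%, 56.3% and 1.01% of the summed *Myc*, *Mycn* and *Mycl* level in the WT samples, 5.89%, 3.98% and 0.128% in the HET samples, and 47.5% and 13.9% in the KO samples. Per kb, *Mycn* therefore exceeded *Myc* in WT2, and in the other 7 samples *Myc* was higher. This split depends on the division by length. In CPM *Mycn* was also above *Myc* in WT1 (277 against 267) and KO1 (259 against 236). The summed family level was 182, 138 and 525.7 CPM per kb in WT, 345, 290 and 547 in HET, and 166 and 359 in KO.

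**Figure D4:**
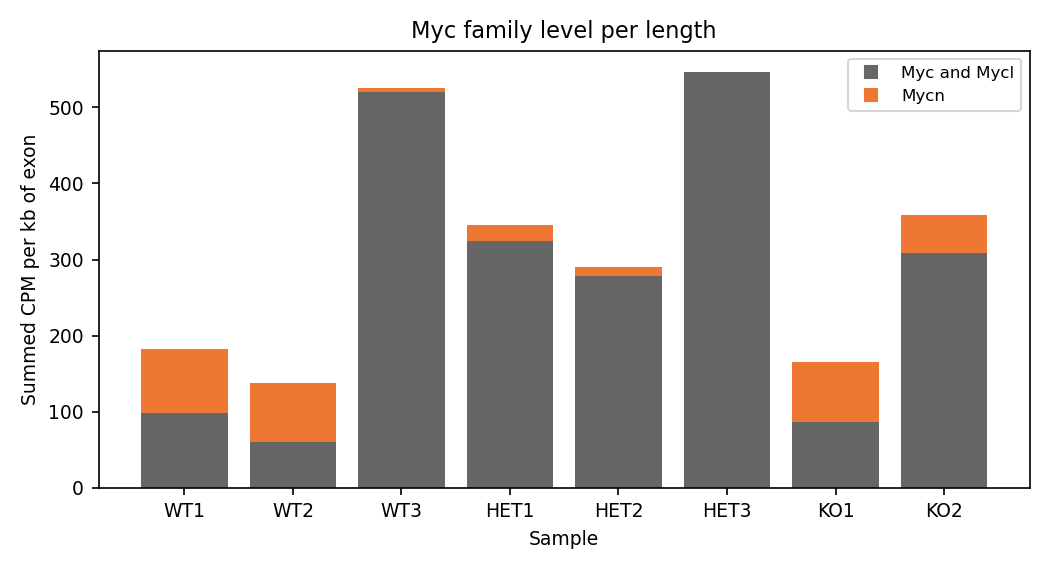
Summed CPM per kb of exon of *Myc* and *Mycl* (grey) and *Mycn* (orange) in each of the 8 samples, 1 bar per sample. *Mycn* takes 47.5% of the bar in KO1 and 0.128% in HET3.

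In the order of mean log2 level per kb, the network ran *Myc*, *Mlx*, *Mycn*, *Max*, *Mlxip*, *Mxd3*, *Mxd1*, *Mxd4*, *Mnt* and *Mycl*. Of the 9 pairs of neighbors, 4 differed within samples beyond their spread (exact two-sided sign-flip permutation test, adjusted over the 9 pairs). *Myc* was above *Mlx* in 8 of 8 samples by 2.76 ± 0.89 on the log2 scale (SD, exact permutation, adjusted p = 0.0234). *Max* was above *Mlxip* by 1.25 ± 0.91 in 8 of 8 samples, at the same exact permutation p. *Mnt* was above *Mycl* in 8 of 8 samples too, but with *Mycl* at or near 0 reads the size of that difference is set by the prior count and is not given. *Mlxip* was above *Mxd3* by 1.04 ± 0.52 in 7 of 8 samples (exact permutation, adjusted p = 0.0352). The place of *Mycn* was not set by these data, since *Mlx* was above it in 4 of 8 samples and it was above *Max* in 5 of 8. Among the 3 *Mxd* genes and *Mnt*, no pair of neighbors passed the test either.

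The balance of *Myc* against the other genes was tested as a log2 ratio of levels per kb within each sample. For *Myc* to *Mycn* it was 0.23, -0.37 and 6.60 in WT, 3.995, 4.59 and 9.54 in HET, and 0.14 and 2.63 in KO. KO1 lay between WT2 and WT1 and KO2 between WT1 and HET1, and the KO mean less the WT/HET mean was -2.71 (exact permutation p = 0.357, adjusted over 4 ratios 0.714). This difference was -0.73 with WT3 and HET3 left out (exact permutation p = 0.667). For *Myc* to *Mxd4* the ratio was 4.52, 3.91 and 9.38 in WT, 7.53, 7.66 and 10.2 in HET, and 4.71 and 7.03 in KO, a difference of -1.33 (exact permutation p = 0.571) and of -0.039 without WT3 and HET3. For *Myc* to *Mxd1* and *Myc* to *Mxd3* the differences were -0.71 and -0.88 (exact permutation p = 0.714 and 0.643), and they were 0.27 and 0.13, the opposite sign, with WT3 and HET3 left out. *Myc* was above each *Mxd* gene in all 8 samples, by at least 14.8 times for *Mxd1*. The *Myc* family summed to 15.5, 12.2 and 153 times the 3 *Mxd* genes in WT, 33.9, 52.8 and 155 times in HET, and 17.5 and 42.5 times in KO.

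**Figure D5:**
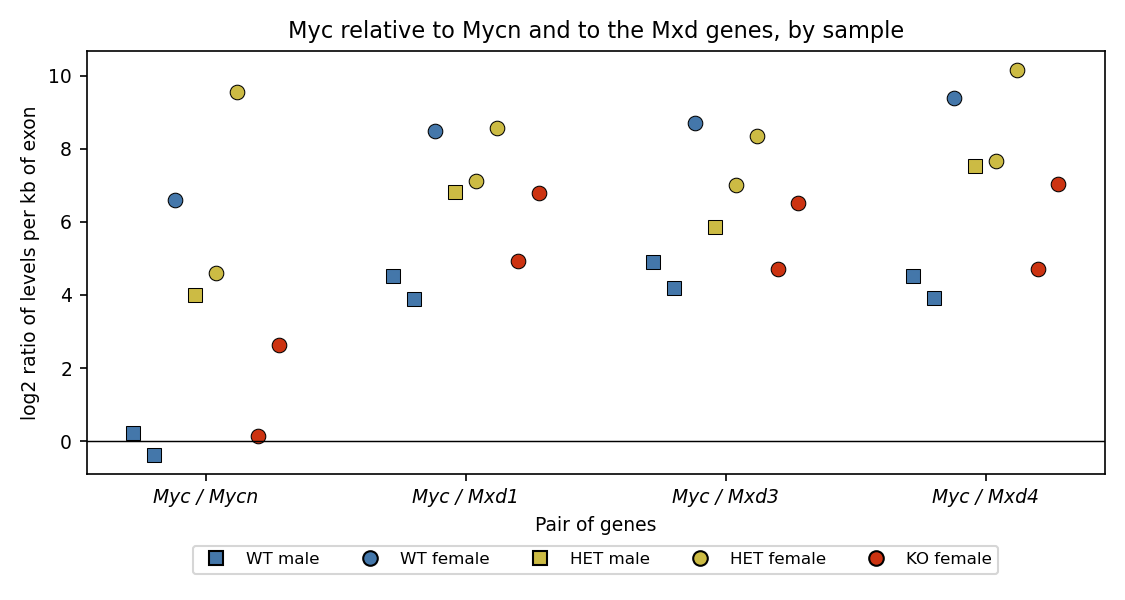
Log2 ratio of the level per kb of exon of *Myc* to *Mycn*, *Mxd1*, *Mxd3* and *Mxd4* (y axis) in each sample, 1 point per sample, with color for genotype and shape for sex. For all 4 ratios the KO points lie within the WT/HET range, which for *Mycn* runs from -0.37 to 9.54.

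Of the other network genes, *Mxi1*, a further MXD gene, ranged from 42.2 to 68.9 CPM with a log2 fold change in KO of 0.05 ± 0.20 (edgeR adjusted p = 0.899), and 0.04 without WT3 and HET3. *Mga*, a large MAX-binding repressor, ranged from 84.1 to 108 CPM (0.21 ± 0.13, edgeR adjusted p = 0.338, and 0.29 without WT3 and HET3). *Mlxipl*, the relative of *Mlxip* active in liver, had at most 10 reads in a sample.

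Of 30 genes that MYC activates, none was called in KO, and 16 were lower and none higher at an unadjusted p under 0.05, against 9.48% and 15.7% of all genes. A negative estimate was found for 29 of them, and for 9223 of the 20610 genes tested. For 0 of the 30 genes were both KO samples below all 6 WT/HET samples, against 1.79% of all genes. Without WT3 and HET3 none of the 30 was at an unadjusted p under 0.05. The median log2 fold change was -0.82 against 0.13 for all genes, and it was -0.65 without WT3 and HET3 and -0.44 without sex in the model. In the same fit 7 of 8 erythroid markers and 8 of 8 hepatocyte markers had negative estimates, with medians of -1.37 and -2.62, or -1.49 and -0.45 without WT3 and HET3, and their part in the list's values was not tested. Between males and females the same list had 25 genes lower and 1 higher at an unadjusted p under 0.05, against 12% and 10.7% of all genes, with a median of -0.84. *Srm*, the spermidine synthase gene, stood at 442, 322 and 1575 CPM in WT, 984, 1259 and 1700 CPM in HET, and 408 and 867 CPM in KO (log2 fold change -1.25 ± 0.50, edgeR adjusted p = 0.176). *Odc1*, ornithine decarboxylase, had a log2 fold change of -1.21 ± 0.39 (edgeR adjusted p = 0.153). *Tfrc*, the transferrin receptor, which erythroid cells also use, had -1.63 ± 0.73 (edgeR adjusted p = 0.207). As for *Myc* itself, the 3 genes were highest in HET3, with KO2 above KO1, and their estimates were -1.01 for *Srm*, -1.10 for *Odc1* and -1.36 for *Tfrc* without WT3 and HET3. Of 7 tested genes that MYC represses, 1 was higher at an unadjusted p under 0.05, against 15.7% of all genes, *Cdkn1b*, the cell cycle inhibitor p27 (1.14 ± 0.48, edgeR adjusted p = 0.189). *Ndrg2*, a stress and differentiation gene, had 1.196 ± 0.68 and *Gadd45a*, a DNA damage gene, -1.05 ± 0.62 (edgeR adjusted p = 0.293 and 0.307). Without WT3 and HET3 *Cdkn1b* was at 0.44, *Ndrg2* at 1.15 and *Gadd45a* at -1.07, and the median of the 7 genes moved from 1.09 to 0.20.

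For the genes that act on the network proteins and the MLX and MLXIP targets, edgeR called none. DESeq2 with apeglm called *Usp28* and *Txnip* as higher, against 6.5% of all genes. Counts at an unadjusted p under 0.05 are to be read against 15.7% of all genes higher and 9.48% lower. Of 16 MYC cofactors, 1 was higher and 2 were lower, shares near those of all genes. *Trrap*, the scaffold of MYC histone acetyltransferase complexes, had a log2 fold change of 0.51 ± 0.16, and *Ruvbl1* and *Ruvbl2*, the helicase pair of those complexes, had -0.66 ± 0.25 and -1.05 ± 0.35 (edgeR adjusted p of 0.152, 0.170 and 0.154). Of 11 corepressors of MXD and MNT, 3 were higher and 2 lower, with *Sin3a*, the scaffold, at 0.67 ± 0.16, *Arid4a* at 0.58 ± 0.23 and *Sap30* at -0.87 ± 0.27. Of 15 genes for MYC protein turnover, 4 were higher and 4 lower. *Pim1*, a kinase that stabilizes MYC, had 2.33 ± 1.01 (edgeR adjusted p = 0.196), and it stood at 83.3 and 70.2 CPM in KO, 96.5, 20.2 and 5.94 CPM in WT, and 12.7, 35.1 and 4.86 CPM in HET. The *Pim1* estimate was 1.10 without WT3 and HET3. Its relative *Pim2* had 1.27 ± 0.38 and *Usp28*, a deubiquitinase for MYC, 1.40 ± 0.36. Of 6 MLX and MLXIP target genes, 2 were higher at an unadjusted p under 0.05, *Txnip*, a brake on glucose uptake (1.81 ± 0.49, edgeR adjusted p = 0.148), and *Klf10* (1.01 ± 0.28, edgeR adjusted p = 0.148). *Arrdc3* had 1.04 ± 0.51 (edgeR adjusted p = 0.234). Without WT3 and HET3 these 3 estimates were 1.24, 0.84 and 0.26, and the median of the 6 genes moved from 0.72 to 0.34. In that fit *Sin3a* (0.69) was the one gene of these 4 lists at an unadjusted p under 0.05, and the estimates of the other named genes kept their sign, at -0.86 for *Ruvbl2*, -0.41 for *Ruvbl1*, 0.33 for *Trrap*, -0.72 for *Sap30*, 0.35 for *Arid4a*, 1.12 for *Usp28* and 1.07 for *Pim2*. *Txnip* was at 547, 512 and 101 CPM in WT, 184, 157 and 65.5 CPM in HET, and 454 and 302 CPM in KO, so both KO samples lay below WT1 and WT2 and above the rest, as for *Mxd4*.

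The genes with the pattern most like *Myc* over the 8 samples, among 8884 genes with a mean of at least 10 CPM, were *Pphln1*, *Isyna1*, *AU022252*, *Wdr4* and *Ppan*, with Pearson's r on log2 CPM from 0.993 to 0.999. For *Mycn* they were *Robo4*, *Appl2*, *Myo1f*, *Neurl3* and *Sh2d3c*, with r from 0.997 to 0.999. Such likeness was common, as 2101 genes had r over 0.9 with *Myc* and 1092 with *Mycn*, and the points share the same 8 libraries and their cell makeup. *Myc* and *Mycn* themselves ran against each other (r = -0.82, Spearman's rho = -0.83, and r = -0.78 without WT3 and HET3).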

How the data were processed

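The authors deposited raw counts per Ensembl gene for the 8 samples. Reads (50-bp single-end, from cDNA amplified by long-distance PCR) were trimmed with Trim Galore 0.6.6, aligned with STAR 2.7.8 to GRCm38 with at most 1 mismatch, and unique reads were counted per gene by STAR, per the methods and the submitters' processing notes. Unique mapping lowers genes with near-identical copies. A deposited table of sex-corrected log2 values and the authors' own comparisons were not used here.

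Symbols and exon lengths came from GENCODE M21 on GRCm38, with 55227 of 55487 IDs matched. Counts were tested with edgeR 4.0.16 (TMM, quasi-likelihood, sex in the model, at least 10 reads over the samples), and levels are CPM, with a prior count of 2 on the log2 scale. DESeq2 1.42.0 with apeglm 1.24.0 was an alternative, as were other scalings, filters, references and left-out samples. Single values were compared by exact permutation (scipy 1.17.1). HET and WT were pooled as the methods do. Replicates are separate animals per the methods, and no 2 libraries of the same genotype agreed within sampling noise. Reads carry no molecular identifiers, so floors cover counting error only.

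Named genes were the 10 network genes, *Nfkbia*, *Mxi1*, *Mga* and *Mlxipl*, up to 3 genes per list with the largest change in KO and a mean of at least 5 CPM, and the 5 most like *Myc* and *Mycn*. The network genes and lists were chosen with earlier results of these data known. The HSC markers named singly for WT3 and HET3 (*Mecom*, *Hlf*, *Procr*, *Ly6a* and *Kit*) were picked after their values were seen. On simulated counts with the dispersions of these samples, the test of KO against WT/HET recovered 41 of 100 genes with a log2 change of 2 and 3 of 100 with a change of 1, over 19702 genes with 2 false calls.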

Additional observations from a re-analysis of the deposited data

Results flagged for a closer look

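*Mycl* in HET1 stood apart from the other WT and HET samples at 1.65 CPM, with a gap to the next sample of 0.747 of the range of the 6 values. Of 14 groups of this kind that were tested 1 passed, and chance passes about 1 in 20. *Max* differed between HET and WT by 0.48 (log2) in males and by -0.14 in females, and *Mlx* by 0.39 in males and by -0.20 in females. The interaction of genotype and sex was 0.61 for *Max* and 0.59 for *Mlx* and did not pass the threshold (edgeR, adjusted p = 0.513 and 0.498), and WT3, low in HSC markers, is the single female WT sample. *Myc* had a larger interaction, 2.37 ± 0.64 (SE), which did not pass the adjusted threshold either (edgeR, unadjusted p = 0.0115, adjusted p = 0.453).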

How the results depend on the processing

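The count of called genes in KO against WT/HET rose from 0 to 1825 with DESeq2, 1463 with apeglm, 1106 without a filter on low counts and 661 with WT alone as the reference, and leaving out 1 sample gave 0 to 730 (8 without HET1, 730 without HET2). *Mycn* and *Mxd4* were called in those 4 settings and in no leave-one-out setting. The setting with WT alone set KO against WT3, the single female WT sample. HET against WT gave 64 with DESeq2, 128 without a filter, 1964 without WT3 and HET3, and 0 to 135 when leaving out 1 sample (135 without HET2). Male against female gave 3 in all samples, 1838 with DESeq2, 2121 without a filter, 0 with the replicate block, 46 without WT3 and HET3, and 1 to 2998 when leaving out 1 sample (1482 without HET1, 2998 without HET2). Network genes with no overlap numbered 7 in females (27.1% of all genes above and 21.4% below) and 1 by library size alone (3.89% above and 1.19% below). The *Myc* to *Mxd1* difference was 0.27 and *Myc* to *Mxd3* 0.13 without WT3 and HET3, and they ran from -1.64 to 0.23 and from -1.79 to 0.023 when leaving out 1 sample (positive without KO1). Pairs of neighbors that differed numbered 0 in females, where 5 samples cannot reach the threshold. They numbered 0 without WT3 and HET3 too, where a pair could pass only if most pairs reached the smallest possible p. Neither count says whether the order was kept.

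In HET against WT, leaving out 1 sample gave -0.34 to 2.03 for *Myc*, -2.31 to 0.20 for *Mycn*, -0.14 to 0.48 for *Max*, -0.54 to 0.24 for *Mxd1*, -1.25 to 0.26 for *Mxd4*, -0.17 to 0.005 for *Mnt*, -0.20 to 0.39 for *Mlx* and -0.70 to 0.27 for *Mlxip*, with the sign turned without HET1 (without HET3 for *Mnt*), and *Mlx* was -0.005 by library size alone. In male against female, *Myc* was 0.22 and *Mlxip* -0.087 without WT3 and HET3, where the value sets HET1 against HET2 alone, and *Mnt* was -0.24 with the replicate block. The cause of these changes was not tested.

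The replicate numbers share only a number: same-numbered samples correlated from -0.35 to 0.59, and with the replicate block KO against WT/HET called 0 genes (589 at an unadjusted p under 0.05). Of 540 alternative values in all, 475 kept their direction and side of the threshold. Scaling by library size alone moved the median of all genes in KO by 0.28 (log2), with no sign turned among the network genes. Depth limits *Mycl* and *Mlxipl*.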
